A study of Rattus norvegicus with 8 samples.

Results

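10 genes of the RhoA, ROCK and myosin phosphatase pathway were chosen by symbol from the gene table of a rat aorta RNA-seq study: Rhoa, Rhob, Rock1, Rock2, Mylk, Myl6, Ppp1r12a, Ppp1r12b, Ppp1r14a and Ppp1cb. Of these 10 genes, 8 had a row among the 27742 rows of the table, and all 8 were among the 12977 rows tested. Rhob and Myl6 were not analysed here. Where a symbol had several rows, the row of highest mean was used. The libraries came from thoracic aorta of wild type male Sprague Dawley rats, labelled as 12 weeks old and 180 to 200 g, a low weight for males of that age. The nitroglycerin group (glyceryl trinitrate, an organic nitrate vasodilator) received 3 subcutaneous doses of 100 mg/kg daily on 3 days, and the control group received the ethanol vehicle on the same schedule, with 4 libraries in each group. The protocol text mentions an adipose type although the tissue is labelled as aorta, and whether every library is a separate rat is not stated, so p-values reflect the spread between these samples only.

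Contraction of vascular smooth muscle depends on phosphorylation of the regulatory light chain of myosin II. Myosin light chain kinase (Mylk) adds the phosphate, and myosin phosphatase removes it. That phosphatase is a complex of a catalytic subunit (Ppp1cb), a targeting subunit of the MYPT family (Ppp1r12a encodes MYPT1, Ppp1r12b encodes MYPT2) and a small subunit. The GTPase RhoA activates the kinases ROCK1 and ROCK2, which inhibit the phosphatase through the targeting subunit and through the inhibitor protein CPI-17 (Ppp1r14a), so that force is kept at a given calcium level. Nitrates release nitric oxide, and the cyclic GMP that follows acts on this balance in the opposite direction, through the same phosphatase. All of these steps are controlled largely at the level of protein activity, which RNA levels do not measure.

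The 250 bases before the RefSeq start of a gene (build GRCr8) were available for 10 of 10 genes. On the rescaled values explained below, Rock1 and Rock2 moved together over the 8 libraries and Ppp1cb moved the opposite way. The bases of these genes are given here 5′ to 3′ on the strand of the gene. Each GC box (GGGCGG on either strand, overlapping matches joined) is in capitals.
Rock1 (chr18:1509148-1509397, minus strand): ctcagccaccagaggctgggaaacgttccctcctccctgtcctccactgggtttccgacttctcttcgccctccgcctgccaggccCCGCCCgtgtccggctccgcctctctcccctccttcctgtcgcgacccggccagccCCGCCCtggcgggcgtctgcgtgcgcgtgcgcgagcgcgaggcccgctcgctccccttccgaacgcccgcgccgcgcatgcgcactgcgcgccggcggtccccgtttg
Rock2 (chr6:45407866-45408115, plus strand): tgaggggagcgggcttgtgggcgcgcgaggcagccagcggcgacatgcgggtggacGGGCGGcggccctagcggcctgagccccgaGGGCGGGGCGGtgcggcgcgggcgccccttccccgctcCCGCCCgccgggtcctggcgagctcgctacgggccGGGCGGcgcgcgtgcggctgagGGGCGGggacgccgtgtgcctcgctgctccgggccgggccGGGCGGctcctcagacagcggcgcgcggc
Ppp1cb (chr6:29712836-29713085, minus strand): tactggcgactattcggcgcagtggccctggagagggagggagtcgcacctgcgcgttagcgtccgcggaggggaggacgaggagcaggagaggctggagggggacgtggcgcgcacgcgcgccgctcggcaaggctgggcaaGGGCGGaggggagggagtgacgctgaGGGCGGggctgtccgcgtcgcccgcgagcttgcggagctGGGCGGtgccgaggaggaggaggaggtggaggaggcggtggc
The GC box was present 2 times at Rock1, 7 times at Rock2 and 3 times at Ppp1cb, and in 6 of the 10 genes, against 30.5% of 33469 RefSeq promoters of this length. The other 3 genes with a match were Ppp1r12a with 2, Ppp1r14a with 4 and Rhob with 1. GC content was 74.4% at Rock1, 82.8% at Rock2 and 73.6% at Ppp1cb, against a median of 51.2% over all promoters. The CArG box, the motif of the serum response factor, was found in 0 of the 10 windows and in 1.5% of all promoters. The CCAAT motif (either strand) was found in 4 of the 10, namely Rhoa, Rhob, Mylk and Myl6, and in 34.0% of all promoters. These matches describe the letters only.

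Values are FPKM (fragments scaled to transcript length and to library size), so levels of different genes can be set side by side. Rhoa was the most abundant of the 8 genes and Ppp1cb the least. The order by mean level was Rhoa, Mylk, Ppp1r14a, Ppp1r12b, Rock1, Ppp1r12a, Rock2 and Ppp1cb. 3 neighbouring pairs kept this order in all 8 libraries: Mylk above Ppp1r14a, Ppp1r14a above Ppp1r12b, and Ppp1r12a above Rock2. Rhoa stood above Mylk in 7 of 8 libraries, Rock1 above Ppp1r12a in 7 of 8 and Rock2 above Ppp1cb in 7 of 8. Ppp1r12b and Rock1 were the least separated neighbours, in order in 6 of 8 libraries.

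Aligned sequence, taken as the constant ratio of coverage to FPKM within a library, was 7.48 to 8.86 Gb in controls and 6.77 to 8.39 Gb in nitroglycerin libraries. Over the 12977 tested rows the log2(FPKM + 1) difference, nitroglycerin minus control, had a median of 0.295, with 86.6% above 0. Differences are therefore given both as deposited and after median-of-ratios rescaling, which multiplies each library by 1 factor and brought that median to 0.0119. The rescaling moved the median by more than the difference of most of the 8 genes, so their directions are stated for both scales. Summed smooth muscle markers (8 of 10 with a row, Acta2 and Myh11 among them) were 2262 to 2995 FPKM in controls and 1426 to 2858 FPKM in nitroglycerin libraries. The sum rests mostly on Acta2, which read 1061 to 2401 FPKM over the 8 libraries, and the markers did not move together. As deposited, 3 of 8 had a difference above 0, among them Lmod1 at 10.4 and 19.1 FPKM (group means; adjusted p = 0.0598 by limma), and after rescaling 1 of 8. Summed adipocyte markers were 6.81 to 18.3 FPKM in controls and 8.52 to 81.0 FPKM in nitroglycerin libraries, where replicate 1 had 81.0 and the others at most 13.1. Summed macrophage markers (7 of 8 with a row) did not overlap as deposited, at 31.5 to 43.3 FPKM in controls and 52.6 to 75.1 FPKM in nitroglycerin libraries. Of all tested rows, 24.2% lay wholly above the controls on that scale. Divided by the factors of the rescaling, the macrophage sums overlapped. The part of these marker sums in the values below was not tested.

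None of the 8 genes passed the threshold of 0.05 by limma with Benjamini-Hochberg adjustment over all tested rows, on either scale. The share of all rows that passed was 1.35% as deposited and 0.131% after rescaling. Before adjustment, at p under 0.05, 1 of 8 was higher (Ppp1cb) and 0 lower as deposited, where 34.1% of all rows were higher and 1.02% lower. On the rescaled values 1 was higher (Ppp1cb) and 1 lower (Rock1), where 5.5% of all rows were higher and 6.44% lower. As deposited, 5 of 8 had a difference above 0 and their median was 0.133. After rescaling, 1 of 8 was above 0 and the median was -0.227, with Ppp1cb the exception. Beside these stand 86.6% of all rows above 0 as deposited and 52.4% after rescaling.

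**Figure D1:**
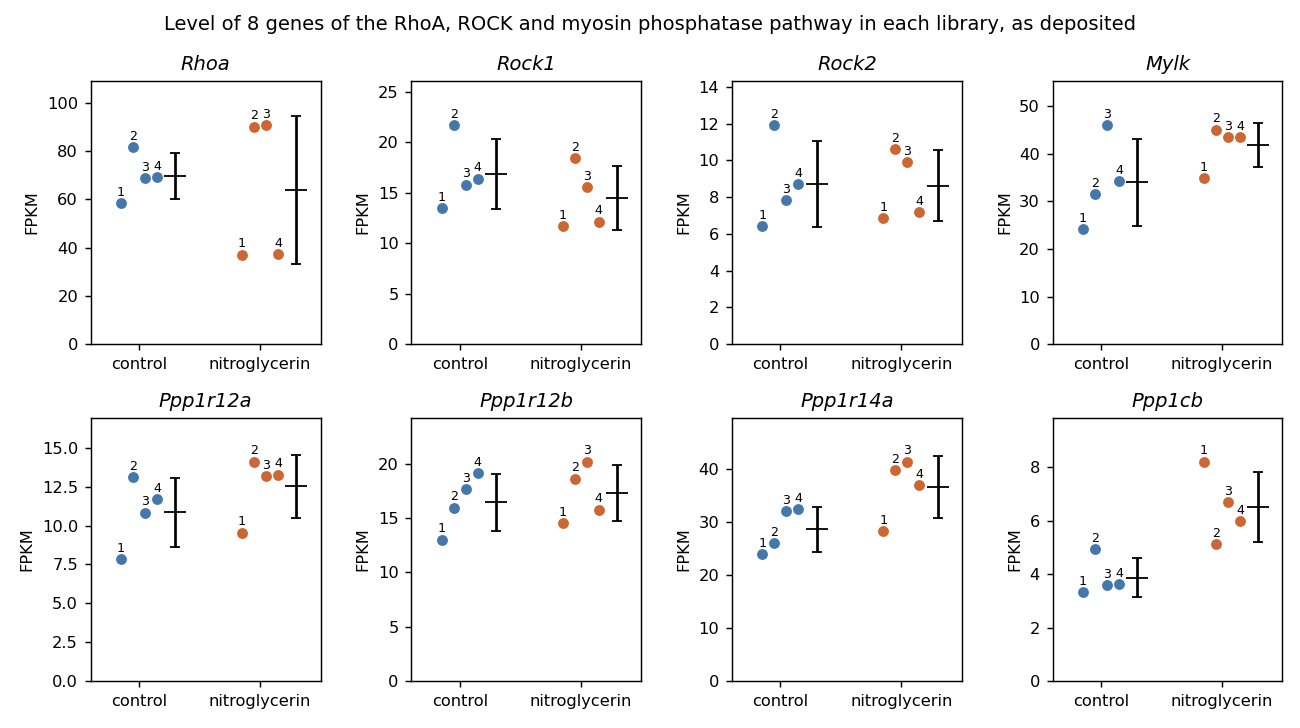
FPKM as deposited (vertical axis) of 8 genes in 4 control and 4 nitroglycerin libraries (points, numbered by replicate), with the mean and SD of each group (bar). Ppp1cb is the only gene of the 8 in which every nitroglycerin library lies above every control library, and Rhoa shows nitroglycerin replicates 1 and 4 near 37 FPKM, below all controls.

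The upstream GTPase Rhoa read 58.5, 81.7, 69.0 and 69.3 FPKM in control replicates 1 to 4 and 37.1, 90.2, 90.9 and 37.3 FPKM in nitroglycerin replicates 1 to 4. Nitroglycerin replicates 1 and 4 lay below every control and replicates 2 and 3 above every control, so the groups overlapped. The group levels were 69.6 ± 9.49 and 63.9 ± 30.8 FPKM (mean ± SD, n = 4 per group), a coefficient of variation of 13.6% in controls and 48.2% in nitroglycerin libraries. The log2 difference was -0.25 (SE 0.33; adjusted p = 0.592 by limma), and after rescaling -0.63 (SE 0.34, adjusted p = 0.509). After rescaling the controls were within 75.9 to 82.0 FPKM, while the nitroglycerin libraries read 32.1, 84.5, 76.5 and 30.7 FPKM. Without nitroglycerin replicates 1 and 4, a choice made after seeing the data, the difference of Rhoa as deposited turned to 0.38 (adjusted p = 0.337 by limma). With 1 of these left out it was -0.034 (replicate 1) or -0.036 (replicate 4), and it was -0.45 without nitroglycerin replicate 2 and -0.46 without replicate 3. The smooth muscle marker sum was also lowest in nitroglycerin replicates 1 and 4, at 1426 and 1712 FPKM, as Acta2 and Cnn1 were. Myh11 in replicate 4 was instead 159 FPKM, within the control range of 142 to 169 FPKM. A mean log2 value was taken over Acta2, Smtn, Lmod1, Itga8, Des and Synpo2, without Myh11 and Cnn1. By this mean, replicate 1 was the lowest library at 5.76, while replicate 4 at 6.08 lay within the control range of 5.98 to 6.29. A mean with Myh11 and Cnn1 included was not computed, so the place of replicate 4 is given for this set only. With this smooth muscle mean as a covariate the Rhoa difference was -0.23. The like mean of the 3 tested adipocyte markers (Plin1, Lipe and Cidea) was 3.91 in nitroglycerin replicate 1 and at most 2.26 elsewhere. With it as a covariate the Rhoa difference was -0.0074 (adjusted p = 0.988 by limma). This adipocyte mean mainly sets nitroglycerin replicate 1 apart, and without that library the difference was -0.034. The part of adipocyte content in the Rhoa values was not tested. The smooth muscle and adipocyte means are the marker levels named below. In bulk tissue, fewer cells of a type and less RNA per cell cannot be told apart.

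The row most like Rhoa over the 8 libraries, by Pearson's r of rescaled log2 values, was Rpl37, a ribosomal protein gene (r = 0.997). Rpl37 read 70.1, 94.3, 83.4 and 68.9 FPKM in controls and 0, 110, 113 and 0 FPKM in nitroglycerin replicates 1 to 4. The next was AABR07047744.1 (r = 0.996), also listed at 0 in nitroglycerin replicates 1 and 4. An exact 0 of a ribosomal protein gene can be a failed estimate, and whether the low Rhoa values of these 2 libraries share its source was not tested. 8 rows of the whole table had at least 10 FPKM in 6 libraries and exactly 0 in the other 2, and in 3 of these 8 the zeros fell in nitroglycerin replicates 1 and 4.

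Rock1, one of the pair of ROCK kinases, read 13.5, 21.7, 15.8 and 16.4 FPKM in controls and 11.7, 18.5, 15.6 and 12.1 FPKM in nitroglycerin libraries. The groups overlapped as deposited, at 16.9 ± 3.50 and 14.5 ± 3.17 FPKM, with a log2 difference of -0.21 (SE 0.19; adjusted p = 0.429 by limma). After rescaling, Rock1 read 18.1, 21.8, 17.4 and 18.1 FPKM in controls and 10.1, 17.3, 13.1 and 9.99 FPKM in nitroglycerin libraries, so that every nitroglycerin library was below every control. The margin was small, since nitroglycerin replicate 2 and control replicate 3 stood at 17.3 and 17.4 FPKM. The rescaled difference of -0.57 (SE 0.17) had an unadjusted p of 0.0105 and did not pass over all rows (adjusted p = 0.260 by limma). Of all tested rows, 4.45% lay wholly below the controls after rescaling and 0.478% did as deposited. With each library left out in turn, also chosen after seeing the data, the rescaled difference ranged from -0.72 to -0.48 and its lowest adjusted p by limma was 0.0896, without nitroglycerin replicate 2.

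Rock2, the other kinase, read 6.44, 11.9, 7.84 and 8.72 FPKM in controls and 6.84, 10.6, 9.90 and 7.17 FPKM in nitroglycerin libraries. Control replicate 2 was the highest of all 8 and control replicate 1 the lowest, and the groups overlapped. The log2 difference was -0.0068 (SE 0.20; adjusted p = 0.982 by limma), with a 95% interval of -0.46 to 0.45. After rescaling it was -0.35 (SE 0.18, adjusted p = 0.483). Rock1 and Rock2 had the highest correlation among the 8 genes (Pearson's r = 0.950 over 8 libraries of rescaled log2 values), and Rhoa had r = 0.905 with Rock2 and 0.891 with Rock1. The 3 genes share the low rescaled values in nitroglycerin replicates 1 and 4, and all rows of a library share its factor. The rows most like Rock1 were Actr3, an actin-related subunit of the Arp2/3 complex (r = 0.995), and Lmna, the lamin A/C gene (r = 0.993). The rows most like Rock2 were Nrap, which encodes a nebulin-related protein (r = 0.973), and LOC100910732 (r = 0.967).

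**Figure D2:**
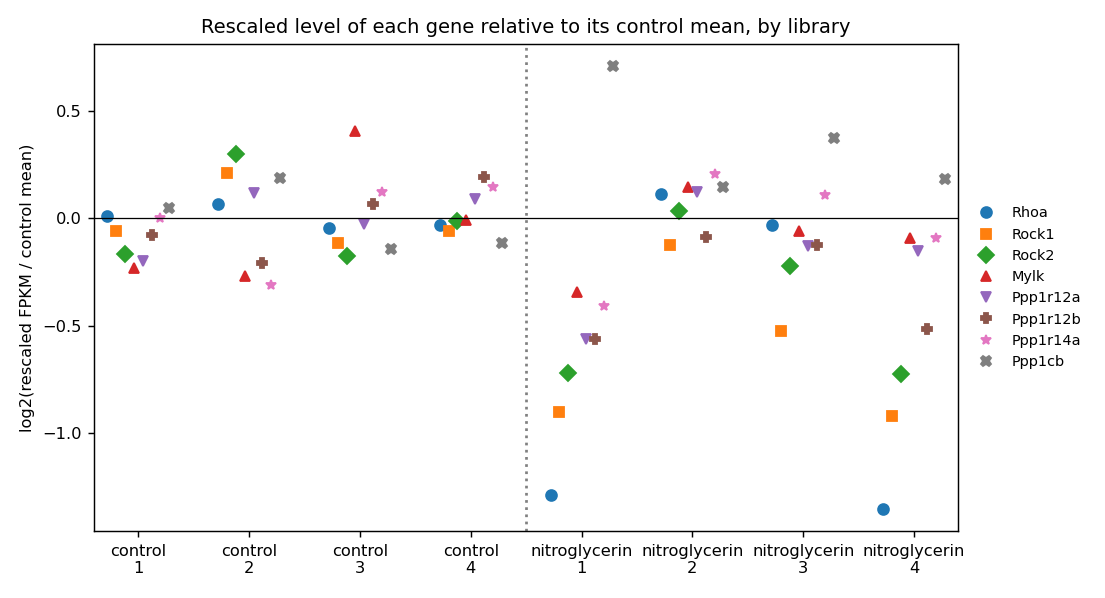
Rescaled FPKM of each of the 8 genes divided by its mean over the 4 controls, on a log2 axis, for each library along the horizontal axis (points, 1 symbol per gene). In nitroglycerin replicates 1 and 4 Rhoa, Rock1 and Rock2 lie lowest, while Ppp1cb lies above 0 in all 4 nitroglycerin libraries.

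The ratio of Rock2 to Rock1 within a library does not depend on the scaling of that library. It was 0.479, 0.549, 0.495 and 0.531 in controls and 0.584, 0.576, 0.635 and 0.590 in nitroglycerin libraries. Every nitroglycerin library was above every control, with means of 0.514 ± 0.0322 and 0.596 ± 0.0265 (SD, n = 4 per group). The difference of 0.22 on the log2 scale had a two-sided exact permutation p of 0.0286, the smallest that 4 against 4 allows, and 0.1 after Benjamini-Hochberg adjustment over the 7 ratios computed, so it did not pass. The exact permutation p was 0.0571 without nitroglycerin replicate 1, 3 or 4. The Rock2 row of the table also holds 4 predicted non-coding transcripts that overlap Rock2 (at most 3.61 FPKM summed in any library). The predicted rows that were checked equalled their summed FPKM times length over a single length (59 of 59, within 0.1%). If the Rock2 row was built likewise, the 4 transcripts made up at most 10.3% to 26.5% of its sequence. This also takes the row's length to be at least that of the longest of the 4, 17562 bases, which was not checked. The part of these transcripts in the ratio was not tested.

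The ratio of Rock1 to Ppp1r12a sets an inhibiting kinase against the targeting subunit it phosphorylates. It was 1.72, 1.66, 1.46 and 1.40 in controls and 1.23, 1.31, 1.18 and 0.914 in nitroglycerin libraries. Every nitroglycerin library was below every control, with means of 1.56 ± 0.151 and 1.16 ± 0.170 (SD, n = 4 per group). The log2 difference of -0.44 had the same two-sided exact permutation p of 0.0286 and an adjusted p of 0.1, which did not pass. Without control replicate 1, control replicate 2 or nitroglycerin replicate 4, the exact permutation p was 0.0571.

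**Figure D3:**
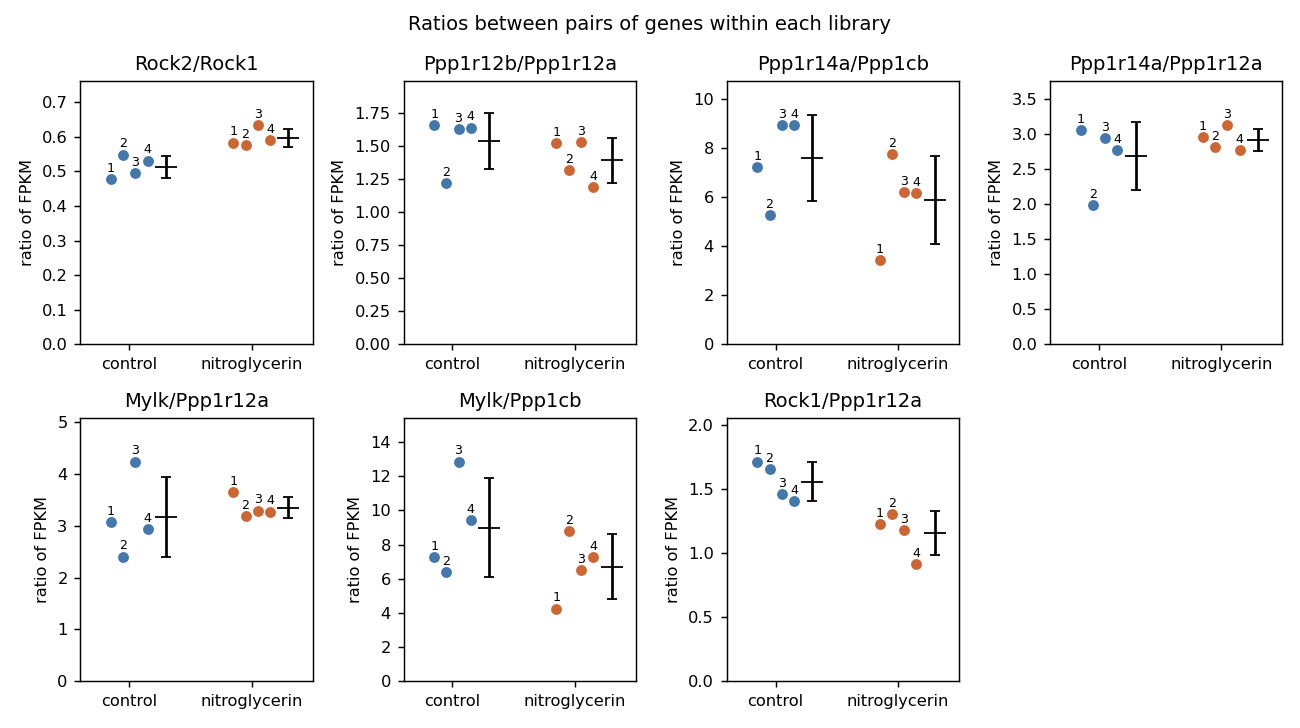
Ratio of the FPKM of one gene to that of another (vertical axis) within each library, for 4 control and 4 nitroglycerin libraries (points, numbered by replicate), with mean and SD (bar). The groups are apart for Rock2/Rock1 (0.479 to 0.549 against 0.576 to 0.635) and Rock1/Ppp1r12a (1.40 to 1.72 against 0.914 to 1.31), and overlap in the other 5.

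Mylk, the kinase that opposes the phosphatase, read 24.1, 31.5, 46.0 and 34.3 FPKM in controls and 34.9, 45.0, 43.5 and 43.5 FPKM in nitroglycerin libraries. Control replicate 3 was the highest of all and the groups overlapped, at 34.0 ± 9.09 and 41.7 ± 4.62 FPKM. The log2 difference was 0.32 (SE 0.20; adjusted p = 0.265 by limma), close to the median of all rows, and after rescaling it was -0.06 (adjusted p = 0.925). The ratio of Mylk to Ppp1r12a was 3.16 ± 0.775 in controls and 3.35 ± 0.205 in nitroglycerin libraries (exact two-sided permutation p = 0.543, n = 4 per group). Without control replicate 3, whose ratio of 4.24 was the highest, this log2 difference went from 0.11 to 0.26 (exact permutation p = 0.0286). Closest to Mylk in pattern were RGD1304728 (r = 0.952) and Tbx19, a T-box transcription factor (r = 0.950), both under 3 FPKM.

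Ppp1r12a, the MYPT1 targeting subunit, read 7.85, 13.1, 10.8 and 11.7 FPKM in controls and 9.55, 14.1, 13.2 and 13.3 FPKM in nitroglycerin libraries. Replicate 1 was the lowest library of each group and the groups overlapped. Its log2 difference was 0.20 (SE 0.18; adjusted p = 0.430 by limma), and -0.16 after rescaling (adjusted p = 0.696). Ccdc127 and Slc30a4 were its closest rows (r = 0.969 and 0.939), the latter a zinc transporter gene.

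Ppp1r12b, the gene of MYPT2, was more abundant than Ppp1r12a in every library. Its row pools 5 transcripts and that of Ppp1r12a pools 12. The values are therefore levels of the genes and do not compare the MYPT2 and MYPT1 subunits. Ppp1r12b read 13.0, 15.9, 17.6 and 19.1 FPKM in controls and 14.5, 18.6, 20.2 and 15.8 FPKM in nitroglycerin libraries. The groups overlapped, with a log2 difference of 0.07 (SE 0.16; adjusted p = 0.759 by limma) and -0.30 after rescaling (SE 0.14, adjusted p = 0.455). The ratio of Ppp1r12b to Ppp1r12a was 1.53 ± 0.212 in controls and 1.39 ± 0.167 in nitroglycerin libraries (exact two-sided permutation p = 0.314, n = 4 per group). Its control replicate 2 stood at 1.22, under the 1.63 to 1.66 of the other controls. Of the 8 genes, Ppp1r12b followed the smooth muscle marker level, the mean without Myh11 and Cnn1, most closely (r = 0.923 over 8 libraries, rescaled values, a description). Its pattern was nearest to those of Pdzrn3, a PDZ domain ubiquitin ligase (r = 0.987), and Tln1, the talin gene of focal adhesions (r = 0.970).

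Ppp1r14a, which encodes the smooth muscle phosphatase inhibitor CPI-17, read 24.0, 26.0, 32.0 and 32.4 FPKM in controls and 28.2, 39.8, 41.3 and 36.9 FPKM in nitroglycerin libraries. Nitroglycerin replicates 2, 3 and 4 were above every control, while replicate 1 lay among the controls. The group levels were 28.6 ± 4.22 and 36.6 ± 5.86 FPKM, a log2 difference of 0.34 (SE 0.17; adjusted p = 0.176 by limma). After rescaling the difference was -0.04 (adjusted p = 0.959), with a 95% interval of -0.40 to 0.33. The ratio of the inhibitor to the targeting subunit, Ppp1r14a to Ppp1r12a, was 2.69 ± 0.484 in controls and 2.92 ± 0.161 in nitroglycerin libraries (exact two-sided permutation p = 0.486, n = 4 per group). Nearest to it in pattern were Asb6 (r = 0.983) and Pkig, an inhibitor of protein kinase A (r = 0.963).

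Ppp1cb, the catalytic subunit, read 3.33, 4.93, 3.58 and 3.63 FPKM in controls and 8.21, 5.13, 6.68 and 5.99 FPKM in nitroglycerin libraries. Every nitroglycerin library was above every control, by a narrow margin between control replicate 2 and nitroglycerin replicate 2, and this was so for 24.2% of all tested rows as deposited. The group levels were 3.87 ± 0.723 and 6.50 ± 1.31 FPKM, 1.68 times as high in nitroglycerin libraries. The log2 difference of 0.62 (SE 0.16, 95% interval 0.26 to 0.98) had an unadjusted p of 0.00345 and an adjusted p of 0.0615 by limma. After rescaling the groups overlapped, whereas 3.78% of all rows lay wholly above the controls, and the difference was 0.30 (SE 0.12; adjusted p = 0.396 by limma), with an unadjusted p of 0.0429 in the same fit. With each library left out in turn the rescaled difference ranged from 0.20, without nitroglycerin replicate 1, to 0.36, and its unadjusted p was above 0.05 in 5 of the 8 fits. Where only rows with at least 1 FPKM in all libraries were tested, the same difference as deposited passed (adjusted p = 0.0419).

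A second row with the symbol Ppp1cb holds only assembled transcripts. It read 0, 3.15, 2.70 and 3.20 FPKM in controls and 1.88, 2.70, 2.21 and 0 FPKM in nitroglycerin libraries. When the rows of each symbol were summed, the log2 difference of Ppp1cb was 0.40 (adjusted p = 0.250 by limma). Ppp1cb was not called with either choice of rows.

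On the rescaled values Ppp1cb had a negative correlation with each of the other 7 genes over the 8 libraries, from -0.79 with Ppp1r12b to -0.51 with Rock2. With the smooth muscle marker level it was -0.86. These are descriptions of that scale only, and correlations as deposited were not computed. As deposited, Ppp1cb was lowest in control replicate 1, as Rock2, Mylk, Ppp1r12a, Ppp1r12b and Ppp1r14a were. Ppp1cb was highest in nitroglycerin replicate 1, the library with the highest adipocyte marker sum and the lowest smooth muscle marker sum. With the adipocyte marker level as a covariate the log2 difference was 0.52 (adjusted p = 0.110 by limma), and with the smooth muscle marker level it was 0.61 (adjusted p = 0.0734). The ratio of Ppp1r14a to Ppp1cb was 7.58 ± 1.74 in controls and 5.88 ± 1.80 in nitroglycerin libraries (exact two-sided permutation p = 0.343, n = 4 per group), and that of Mylk to Ppp1cb was 8.99 ± 2.89 and 6.70 ± 1.89 (p = 0.286). The rows most like Ppp1cb were LOC100909712 (r = 0.979) and Tgfbr2, a receptor of transforming growth factor beta (r = 0.965).

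**Figure D4:**
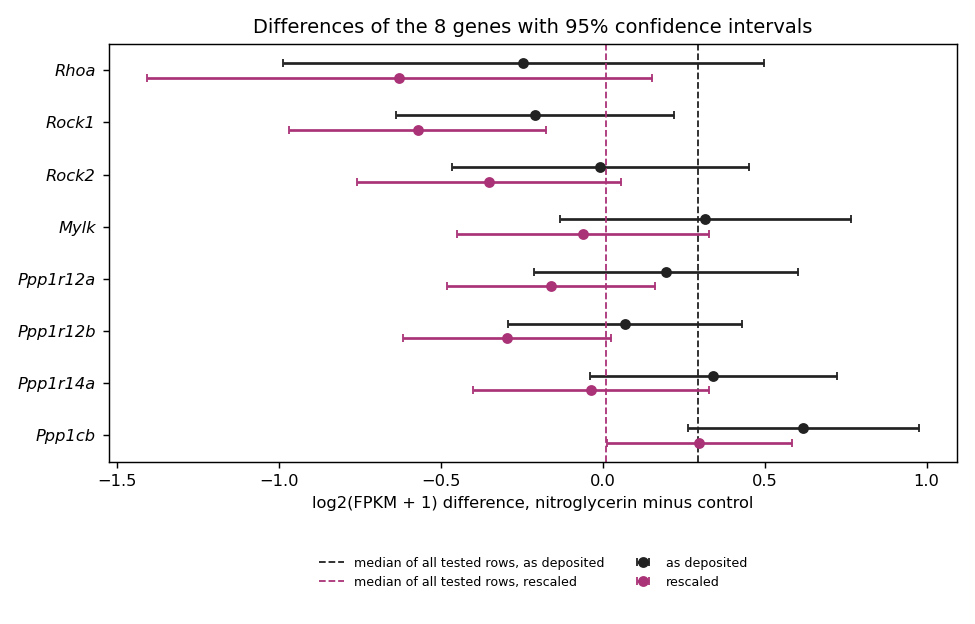
Difference in log2(FPKM + 1), nitroglycerin minus control (horizontal axis), of each of the 8 genes with its 95% confidence interval, as deposited (black) and after rescaling (purple). Dashed lines mark the median of all tested rows on each scale, 0.295 and 0.0119. The as-deposited interval includes 0 for 7 genes and excludes it for Ppp1cb. The rescaled interval excludes 0 for Rock1 (-0.97 to -0.17) and Ppp1cb (0.012 to 0.58). The intervals are not adjusted for the number of rows tested.

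Non-coding transcripts predicted by the authors at these genes numbered 7 and lay at Rock2 and Ppp1r12b. The 4 at Rock2 share its strand, have 2 exons each and overlap its exons per the class code. The most abundant of them in most libraries, MSTRG.17254.1, spans chr6:42180863-42206733 in the coordinates of the file, for which the sources list the rat build Rnor_6.0 without tying it to the table. It read 1.31, 0.509, 1.21 and 1.63 FPKM in controls and 0.451, 1.28, 1.78 and 0.966 FPKM in nitroglycerin libraries, and its groups overlapped. The 3 at Ppp1r12b are intronic transcripts of 1 exon on the minus strand of chromosome 13. MSTRG.5749.1 (chr13:51635098-51637566) was listed at 0 in all 4 controls and in nitroglycerin replicates 1 and 2, and at 1.60 and 1.57 FPKM in replicates 3 and 4. MSTRG.5750.1 (chr13:51639573-51640380) was listed at 0 in replicates 1 and 2 of both groups and read 0.739 and 1.23 FPKM in the other controls and 2.02 and 1.92 FPKM in the other nitroglycerin libraries. Of the 7, 3 were detected widely enough to test, and 0 of these passed by limma on log2(FPKM + 0.1), with 0 at an unadjusted p under 0.05 and adjusted p values of 0.860 to 0.969, where 0.0418% of 2390 transcripts passed.

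Around these genes, 7 lists of upstream regulators, phosphatase partners, myosin chains and effectors held 110 entries, of which 81 were tested. By limma over all tested rows 1 of the 81 passed as deposited, and on the rescaled values 0 did. Counted by an unadjusted p below 0.05, 16 were higher and 2 lower as deposited (19.8% and 2.47% of the 81, against 34.1% and 1.02% of all rows). On the rescaled values 2 were higher and 15 lower (2.47% and 18.5%, against 5.5% and 6.44% of all rows). The median difference was 0.212 as deposited and -0.0979 after rescaling, against 0.295 and 0.0119 over all rows. The plot of pathway differences by list shows that the median of each list lay below that of all rows.

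The gene that passed was Prkcd, protein kinase C delta, a member of the kinase family that phosphorylates CPI-17. As deposited it read 6.84 ± 0.435 in controls and 10.7 ± 0.533 FPKM in nitroglycerin libraries (n = 4 per group). Controls were at 6.47 to 7.36 and nitroglycerin libraries at 9.97 to 11.2 FPKM, so the groups did not overlap on that scale, where 24.2% of all tested rows lay wholly above the controls. After rescaling the groups of Prkcd overlapped. Its log2 difference was 0.58 (SE 0.10; adjusted p = 0.0492 by limma), and 0.23 after rescaling (adjusted p = 0.401). With each library left out in turn, 0 pathway genes passed in 7 of the 8 fits, the exception being the fit without nitroglycerin replicate 2, with 1 call. The macrophage marker sums were apart between the groups in the same direction as deposited, and their part in the Prkcd values was not tested. Of the 17 tested phosphatase subunits, inhibitors and inhibitory kinases, 15 had a difference above 0 as deposited and 6 after rescaling. Prkca, protein kinase C alpha, stood at 0.974 ± 0.275 and 2.33 ± 1.28 FPKM (adjusted p = 0.117 by limma), and its groups overlapped. Ilk, the integrin-linked kinase, was the most abundant of them at 68.7 ± 6.92 and 83.2 ± 6.36 FPKM (adjusted p = 0.179). Ppp1r12c, another targeting subunit, read 9.65 ± 2.07 and 8.98 ± 2.13 FPKM, with a log2 difference of -0.10 as deposited and -0.45 after rescaling (adjusted p = 0.407). After rescaling Prkca was 0.46 and Ilk -0.11.

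None of the 12 tested guanine nucleotide exchange factors and G proteins upstream of RhoA passed. The exchange factor Arhgef1, coupled to G12/13 receptors, stood at 7.80 ± 0.999 and 11.1 ± 1.00 FPKM. The groups of Arhgef1 were apart as deposited, where 24.2% of all tested rows lay wholly above the controls. They were also apart after rescaling, where 3.78% did. The log2 difference of Arhgef1 was 0.46 (adjusted p = 0.0665 by limma), and 0.11 after rescaling. Arhgef28 stood at 2.51 ± 0.578 and 4.03 ± 0.633 FPKM (adjusted p = 0.0685). The most abundant, Net1, read 23.5 ± 1.51 and 40.1 ± 14.8 FPKM, with nitroglycerin replicate 3 at 60.3 and replicate 2 at 25.2 FPKM. The G protein subunit genes Gna13 and Gnaq had the lowest p among those below 0, at log2 differences of -0.23 and -0.33 (adjusted p 0.689 and 0.498) and of -0.53 and -0.57 after rescaling. After rescaling Arhgef28 was 0.23 and Net1 0.30. Nitroglycerin replicates 1 and 4 were the lowest of all libraries for Gnaq, at 0.687 and 0.881 FPKM.

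Among the 12 tested GTPase-activating proteins and dissociation inhibitors, which turn such GTPases off or hold them in the cytosol, 11 had a difference above 0 as deposited and 5 after rescaling. Arhgap29 stood at 2.13 ± 0.209 and 4.06 ± 0.811 FPKM. The groups of Arhgap29 were apart as deposited and after rescaling, where 24.2% and 3.78% of all tested rows lay wholly above the controls. The log2 difference of Arhgap29 was 0.68 (adjusted p = 0.0503 by limma), and 0.39 after rescaling (adjusted p = 0.243). Arhgap5 read 4.70 ± 0.874 and 7.05 ± 1.31 FPKM (adjusted p = 0.0795). Arhgdia, a dissociation inhibitor, was the most abundant at 43.6 ± 5.82 and 32.5 ± 20.2 FPKM (adjusted p = 0.289). Its nitroglycerin libraries split into 49.2 and 50.4 FPKM in replicates 1 and 3 and 12.5 and 17.8 FPKM in replicates 2 and 4, a different pair from that of Rhoa. After rescaling the log2 differences of Arhgap5 and Arhgdia were 0.17 and -1.02 (adjusted p 0.594 and 0.382).

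Of the 10 other small GTPases of the lists tested, 0 passed, and 0 had an unadjusted p under 0.05 as deposited. Rhoc, the closest relative of Rhoa in the list, was the most abundant at 34.6 ± 9.98 and 37.3 ± 1.70 FPKM (adjusted p = 0.600 by limma). Rhoq read 15.2, 36.9, 17.8 and 19.0 FPKM in controls and 7.67, 17.8, 22.7 and 10.8 FPKM in nitroglycerin libraries, lowest in replicates 1 and 4 as Rhoa was. Rac1 stood at 17.7 ± 12.0 and 14.1 ± 1.33 FPKM, Rnd2 at 3.21 ± 1.49 and 4.79 ± 0.482 FPKM and Rhoj at 4.00 ± 0.706 and 4.90 ± 0.894 FPKM, and the groups overlapped for each. Rhoq had a log2 difference of -0.58 as deposited and -0.95 after rescaling (adjusted p 0.259 and 0.332), and after rescaling Rhoc was -0.23, Rac1 -0.49, Rnd2 0.24 and Rhoj -0.07.

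Of the 11 myosin chains, calmodulins and related genes tested, 0 passed. Myl9, the regulatory light chain that Mylk phosphorylates, read 160, 134, 165 and 149 FPKM in controls and 74.5, 78.2, 84.4 and 134 FPKM in nitroglycerin libraries. Its means were 152 ± 13.6 and 92.7 ± 27.6 FPKM. Every nitroglycerin library was below every control, with nitroglycerin replicate 4 and control replicate 2 both near 134 FPKM. As deposited, 0.478% of all tested rows lay wholly below the controls. Divided by the factors of the rescaling, the groups of Myl9 stayed apart, where 4.45% of all rows lay wholly below. The log2 difference of Myl9 was -0.75 (SE 0.20; adjusted p = 0.0664 by limma), and -1.13 after rescaling (adjusted p = 0.0949). Cnn1, the smooth muscle calponin, stood at 88.8 ± 15.7 and 56.3 ± 26.0 FPKM (adjusted p = 0.131), lowest in nitroglycerin replicates 1 and 4. The smooth muscle heavy chain Myh11 had the highest mean of the list over all libraries, at 151 ± 12.7 and 130 ± 21.5 FPKM (adjusted p = 0.311). After rescaling the log2 differences of Cnn1 and Myh11 were -1.12 and -0.62 (adjusted p 0.242 and 0.177). The non-muscle chains Myl12a (11.0 ± 3.28 and 14.9 ± 0.935 FPKM) and Myh10 (30.9 ± 6.29 and 41.5 ± 7.44 FPKM) had log2 differences of 0.43 and 0.42 (adjusted p 0.133 and 0.154), and of 0.07 and 0.04 after rescaling.

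Of 14 other effectors of RhoA and ROCK tested, 0 passed. Daam1, a formin, stood at 3.91 ± 0.374 and 5.91 ± 0.673 FPKM (adjusted p = 0.0585 by limma), and Rdx, the radixin gene, at 13.9 ± 1.96 and 18.6 ± 1.55 FPKM (adjusted p = 0.0888). For both the groups were apart as deposited, where 24.2% of all tested rows lay wholly above the controls, and overlapped after rescaling. Cfl1, the actin-severing cofilin downstream of ROCK and LIM kinase, was the most abundant at 72.0 ± 13.8 and 70.4 ± 6.06 FPKM, a log2 difference of -0.01 as deposited and -0.40 after rescaling (adjusted p = 0.254). Marcks and Diaph1 had log2 differences of -0.14 and -0.08 as deposited, and of -0.41 and -0.42 after rescaling (adjusted p 0.364 and 0.297). After rescaling Daam1 was 0.17 and Rdx 0.03. Of the 5 tested genes of the serum response factor and its cofactors, which RhoA signalling activates through actin, 0 passed. Filip1l had the largest difference at 9.53 ± 5.30 and 16.5 ± 2.54 FPKM (adjusted p = 0.109), Fhl2 stood at 0.982 ± 0.331 and 1.41 ± 0.688 FPKM, Srf at 4.84 ± 2.11 and 4.43 ± 1.37 FPKM, and the cofactor gene Mkl1 at 5.12 ± 2.14 and 4.12 ± 0.551 FPKM. Their log2 differences after rescaling were 0.50, 0.07, -0.40 and -0.52, in that order.

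**Figure D5:**
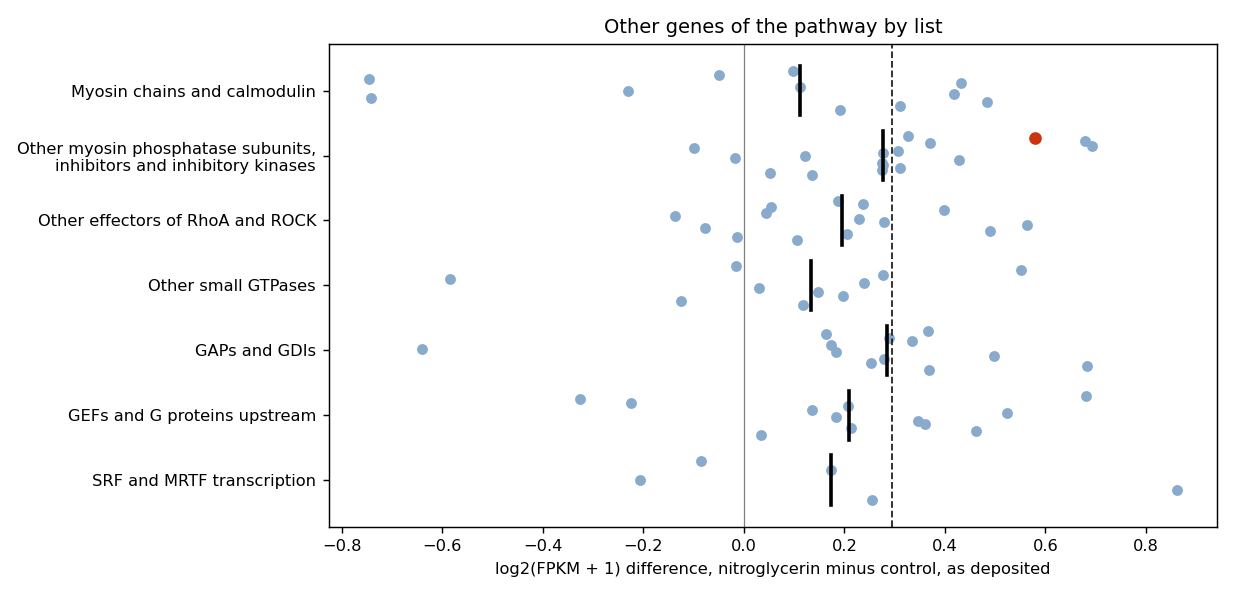
Difference in log2(FPKM + 1) as deposited, nitroglycerin minus control (horizontal axis), of the tested genes of 7 lists (1 point per gene, vertical bar at the list's median, red for the gene with an adjusted p under 0.05, Prkcd). The dashed line is the median of all tested rows, 0.295, and list medians run from 0.112 to 0.284.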

How the data were processed

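The deposited gene and lncRNA tables give FPKM per library, and the lncRNA table also gives coverage (signal) per base, per the file headers. HISAT2 2.0, StringTie 1.3.0, Bowtie 0.12.2 and the builds Rnor_6.0 and mm8 are listed without roles, per the submitters' processing notes. FPKM are relative and not counts, so no count test or counting interval was computed. Rows that reached 1 FPKM in 4 or more libraries were tested as log2(FPKM + 1) with limma 3.58.1 in R 4.3.3 (mean-variance trend, Benjamini-Hochberg over all 12977 rows, threshold 0.05), and fold changes on this scale understate those of low genes. lncRNAs used 0.1 FPKM as filter and pseudocount. Rescaling used median-of-ratios factors. Of 8 planned ratios, 7 could be measured and were compared over 70 splits. The 10 genes and the pathway and marker lists were chosen with earlier results of these data known. Named were all 10 genes, up to 2 genes of lowest p per direction and the most abundant gene of each list, and the 2 rows with a symbol most like each gene. A gene that this rule names is not reported here. Other named transcripts and library values were chosen after their values were seen. Promoters came from RefSeq. The fit was tested on simulated data. Plots were drawn with matplotlib 3.10.9 under Python 3.11.15.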

Additional observations from a re-analysis of the deposited data

Results flagged for a closer look

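Of 110 groups of 4 libraries examined, 10 had 1 library whose gap to the nearest other library took more of the range than Dixon's 95% critical value allows, and chance gives this in about 1 in 20 groups. Among the pathway's chosen genes, Mylk was set apart in nitroglycerin replicate 1, at 34.9 FPKM against 43.5 to 45.0 FPKM in the other 3. The ratio of Ppp1r12b to Ppp1r12a was set apart in control replicate 2, at 1.22 against 1.63 to 1.66. Myl9 read 134 FPKM in nitroglycerin replicate 4 against 74.5 to 84.4 FPKM. Rac1 read 35.5 FPKM in control replicate 3 against 9.82 to 14.1 FPKM. Gna13 read 1.15 FPKM in nitroglycerin replicate 4 against 6.39 to 7.01 FPKM. Mkl1 read 8.31 FPKM in control replicate 2 against 3.81 to 4.30 FPKM, and 4.94 FPKM in nitroglycerin replicate 3 against 3.75 to 3.94 FPKM. Summed adventitial fibroblast markers were 516 FPKM in control replicate 2 against 240 to 283 FPKM, summed macrophage markers 75.1 FPKM in nitroglycerin replicate 3 against 52.6 to 55.5 FPKM, and summed adipocyte markers 81.0 FPKM in nitroglycerin replicate 1 against 8.52 to 13.1 FPKM. What set these libraries apart was not tested.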

How the results depend on the processing

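Depth was 6.77 to 8.86 Gb per library, and no counts per row were used, so counting error is not given. None of the 8 measured genes was called under any alternative except Ppp1cb, the 1 gene called where all libraries had to reach 1 FPKM. The 175 calls over all rows became 7 with a pseudocount of 0.1, 1178 with at least 1 FPKM in all libraries, 26 unfiltered, 17 once rescaled, 15 by quantile normalization, 9 and 13 with the adipocyte and smooth muscle marker levels as covariates, 30 with rows of a symbol summed, 12 without nitroglycerin replicates 1 and 4 (chosen after seeing the data), and 5 to 284 with 1 library left out. The 1 pathway call became 6 with at least 1 FPKM in all libraries and 2 with robust variance estimation, 0 to 1 with 1 library left out, and 0 with the pseudocount of 0.1, rescaling, quantile normalization, either covariate, summed rows or without nitroglycerin replicates 1 and 4. With the replicate number as a block, 0 rows, 0 pathway genes and 0 of the 8 genes were called (4037 rows had an unadjusted p under 0.05), and likewise after rescaling (1611 rows). Same-numbered libraries had correlations of 0.133, -0.011, -0.012 and 0.121, and 2 of 4 fitted best with their own number. With so few libraries this does not settle whether the numbers mark pairs. They were not taken as pairs because the titles do not say that a number marks a shared batch or animal.

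Directions that turned, as log2 differences, were these. Without nitroglycerin replicates 1 and 4, Rhoa was 0.38, Rock1 0.028 and Rock2 0.24. Rock2 was 0.10 and 0.0011 with the adipocyte and smooth muscle covariates, and -0.13 to 0.14 with 1 library left out. After rescaling, with or without the block, Mylk was -0.061, Ppp1r12a -0.16, Ppp1r12b -0.30 and Ppp1r14a -0.035. After quantile normalization Ppp1r12a was -0.086 and Ppp1r12b -0.22. With 1 library left out Ppp1r12b was -0.031 to 0.14, the ratio of Ppp1r14a to Ppp1r12a -0.0021 to 0.21 and that of Mylk to Ppp1r12a -0.0096 to 0.26. With rows summed, the ratio of Ppp1r12b to Ppp1r12a was 0.0065. The cause of these changes was not tested.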
